A study of Mus musculus with 8 samples.

Results

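Lysosomal membrane proteins, acid hydrolases and subunits of the lysosomal proton pump were measured as 40 genes in macrophages sorted from mouse mammary tumours. The genes were given as a list of symbols, found on the array through the accession of each probe that is not a control, and represented by the probe with the highest mean processed signal over the 8 arrays. They were 40 of 20870 genes tested. All 40 were measured, each by a probe well above background on all 8 arrays, so none was lost to the filter on dim probes. The tumours grew from PyMT breast cancer cells, driven by polyoma middle T, that were implanted at the orthotopic site in syngeneic C57BL/6 hosts, and cells positive for both F4/80 and CD45 were sorted about 21 days later. The hosts were wild type (WT, 4 samples) or ATF3 KO (4 samples), ATF3 being a stress-induced transcription factor. The label gives the knockout for the host, names no cell type for it, and says nothing of Atf3 in the implanted cells. Age, sex and the number of mice behind a sample are not given in the sources used here, so a p-value here speaks to the spread of these samples, which may be technical, and not to that of mice. The comparison addresses how these genes differ between macrophages of tumours in the 2 kinds of host.

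The lysosome is the acidic compartment in which macrophages digest engulfed cells, matrix and their own worn organelles. A V-ATPase, built of a membrane sector (V0) that conducts protons and a cytosolic sector (V1) that hydrolyses ATP, keeps it acidic, and most of its hydrolases work best at that acidity. The transcription factor TFEB and its relatives bind E-box sequences near the start sites of many lysosomal genes and raise them together when lysosomes are stressed or nutrients are short. Tissue macrophages are rich in lysosomes, and loss of many single hydrolases gives a storage disease.

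The sequence letters that such factors bind are shown first, because members of several roles share them, among membrane proteins, hydrolases and pump subunits. RefSeq promoters of assembly GRCm38.p6, from 250 bases before to 50 after each transcript start, were on hand for 34 of the 40 genes (41 promoters). Asah1, Galns, Atp6v0d2, Atp6v1b2, Atp6v1c1 and Atp6v1h were not matched. On either strand, the extended E-box GTCACGTG occurred in 10 of the 34 genes and in 24.4% of their promoters, against 2.25% of all 32851 promoters in that table. The shorter CACGTG, which lies within it, occurred in 12 of the 34 genes and 29.3% of their promoters, against 7.15% of all. The sites shown lie upstream of the start in promoters of a membrane glycoprotein, an ion channel, another membrane protein, a glycosidase, a protease and a pump subunit. Each line gives 48 bases, 5′ to 3′ on the gene's strand, with the match or its reverse complement CACGTGAC in capitals.
Lamp1: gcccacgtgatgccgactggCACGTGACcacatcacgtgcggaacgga
Mcoln1: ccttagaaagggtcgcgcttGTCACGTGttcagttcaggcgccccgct
Cln3: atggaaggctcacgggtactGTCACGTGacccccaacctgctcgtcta
Gla: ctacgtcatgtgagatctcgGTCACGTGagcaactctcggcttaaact
Lgmn: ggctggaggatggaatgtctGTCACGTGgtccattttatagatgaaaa
Atp6v0b: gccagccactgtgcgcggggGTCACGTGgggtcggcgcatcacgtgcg

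The Lamp1 window is chr8:13159113-13159160 on the plus strand, and its match begins 28 bases upstream of the start. The Mcoln1 window is chr8:3500426-3500473 on the plus strand, with the match 73 bases upstream, and a further match lies 45 bases upstream. The Cln3 window is chr7:126583332-126583379 on the minus strand, with the match 123 bases upstream. There the letters run on by a further ac into a full palindrome, held by 1 of the 34 genes and by 0.326% of all promoters. The Gla window is chrX:134601174-134601221 on the minus strand (196 bases upstream). Lgmn lies at chr12:102439116-102439163 on the minus strand (51 bases upstream), and Atp6v0b at chr4:117887340-117887387 on the minus strand (38 bases upstream). Arsa, Atp6v0d1, Glb1 and Sgsh are the other 4 genes with the extended E-box. Letters tied to ATF and AP-1 factors were at or near their general share: TGACGTCA occurred in the promoter of Gusb alone (2.44% of promoters against 1.79%), and TGANTCA in those of Atp6v0a1, Glb1, Neu1 and Psap (9.76% against 7.81%). A match is a description of letters and shows no binding.

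The arrays were of like quality, with 63.7 to 68.0% of spots well above background, a 75th percentile 20.6 to 31.9 times the background and 0 saturated spots. Levels below are log2 processed signal minus the array's 75th percentile, so they compare samples for 1 gene and not genes with each other. Of 15 listed macrophage markers 14 were measured, each well above background on all 8 arrays, and Cd68 was not analysed here. Tumour epithelial markers were measured too, 10 of 11 listed, among them Krt8 at 1.52 to 4.96. The knocked-out gene could not check the labels. The only probe for Atf3 read 4.92, 4.99, 4.79 and 4.51 in the WT group and 5.51, 4.86, 4.96 and 4.88 in the KO group (replicate numbers 1 to 4, the order used for all values below), and where it lies relative to the deletion is not given, so samples are named here by their label.

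None of the 40 lysosomal genes passed as different between the KO-labelled and the WT-labelled group. In limma with Benjamini-Hochberg adjustment 0 of 40 passed an adjusted p of 0.05, and neither did any of the 20870 genes (0%). At an unadjusted p under 0.05 limma also gave 0 of 40, beside 696 of all genes (3.33%), of which 1.12% of genes were higher in KO and 2.22% lower. The groups overlapped in 40 of 40 members, while they did not overlap in 2.12% of all genes. The members' log2 differences (labelled KO minus labelled WT) ran from -0.52 for Idua to 0.32 for Arsa, with a median of -0.10 against -0.0086 over all genes tested. Of the 40, 32 were lower and 8 higher in KO, but under the normexp background correction 12 were lower and 28 higher. That setting also read the median signal, added an offset of 50 and reset the scale, and the part of each was not tested. The members' median under it was 0.040, where the median of all genes was itself -0.13. The median also crossed 0 when WT sample 3 (0.015) or KO sample 4 (0.018) was left out. Markers of macrophages were as close between genotypes, 5 of 14 being higher in KO with a median difference of -0.031. Markers of T cells were higher for 10 of 11 (median 0.55), of NK cells for 8 of 9 (0.65), of B cells for 4 of 5 (0.36) and of dendritic cells for 6 of 8 (0.63), and those of endothelium were lower for 9 of 9 (-0.96). None of these markers was called, and their part in the members' differences was not tested.

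The precision behind these differences was fair for most members. The 95% interval of the difference lay within 2-fold in either direction for 34 of 40 members (85%), against 51.4% of all genes. The 6 with wider intervals were Tfeb, Arsa, Galns, Idua, Pla2g15 and Atp6v0d2. Once the replicate number was entered as a block, the median standard error of a member was 0.130 in place of 0.290, the interval lay within 2-fold for 37 of 40 (92.5%, against 65.1% of all genes), and Tfeb, Idua and Atp6v0d2 stayed wider. That fit also gave 0 of 40 members at an adjusted or an unadjusted p under 0.05, beside 0 and 1576 (7.55%) of all genes. The smallest member p in it was 0.0862, for Gla (limma adjusted p = 0.708).

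**Figure D1:**
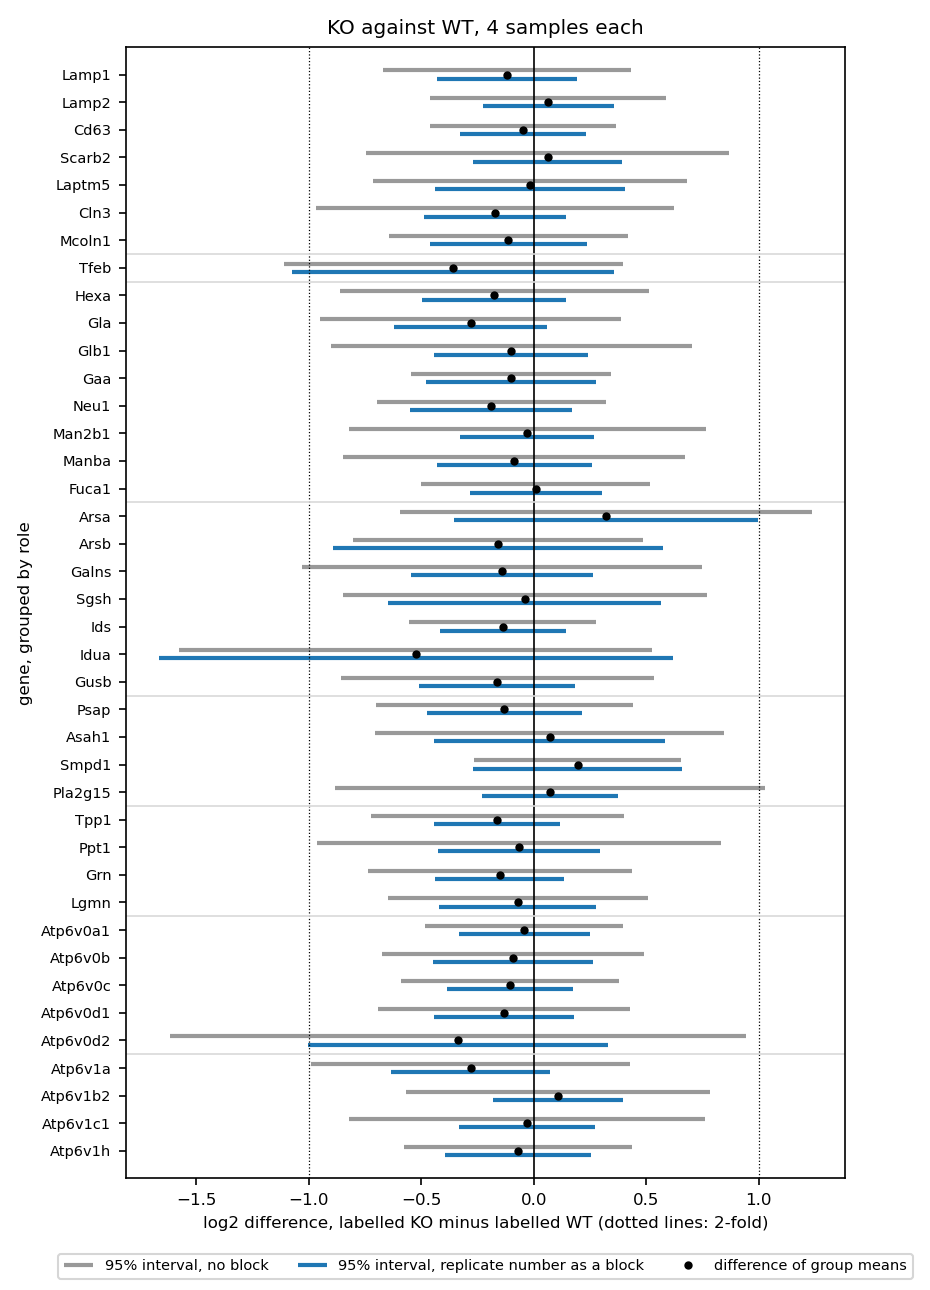
Log2 difference between 4 samples labelled KO and 4 labelled WT for each of the 40 genes, grouped by role (points), with 95% intervals from limma without a block (grey) and with the replicate number as a block (blue). Every interval crosses 0, and the dotted lines mark 2-fold.

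Among 7 lysosomal membrane proteins 2 were higher and 5 lower in KO, with a median difference of -0.047 and 0 called. Lamp1, the abundant glycoprotein that lines the lysosomal membrane, was at 6.70, 6.37, 6.84 and 6.21 in WT and at 6.42, 6.28, 6.88 and 6.06 in KO. Sample 3 was highest and sample 4 lowest in both genotypes, and the groups overlapped (difference -0.12, SE 0.24). Cln3, a membrane protein lost in juvenile Batten disease, was at 2.89, 2.34, 2.42 and 1.54 in WT and at 2.60, 2.04, 2.34 and 1.53 in KO. Each KO sample lay below the WT sample of its number, by 0.29, 0.30, 0.08 and 0.02, and the difference of -0.17 (SE 0.34) was under the spread within each genotype. Mcoln1, the calcium-permeable channel TRPML1, was at 3.70, 3.17, 3.31 and 3.18 in WT and at 3.57, 2.90, 3.48 and 2.96 in KO. Sample 1 was highest and sample 2 lowest in both genotypes (difference -0.11, SE 0.23). Laptm5, a lysosomal membrane protein of blood cells, was at 5.52, 5.44, 5.50 and 4.62 in WT and at 5.75, 4.999, 5.48 and 4.78 in KO. Its group means differed by -0.018 (SE 0.30), with sample 4 low in both genotypes. The other 3, Lamp2, the tetraspanin Cd63 and Scarb2, which carries glucocerebrosidase to lysosomes, had differences of 0.065, -0.047 and 0.062.

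Tfeb, the regulator itself, was at -2.27, -1.40, -2.21 and -2.72 in WT samples and at -2.33, -2.66, -2.06 and -2.99 in KO samples. WT sample 2 stood above the other 7, the groups overlapped, and the difference of -0.36 (95% interval -1.11 to 0.40) did not pass. It came to -0.11 without that sample, -0.20 without KO sample 4 and -0.55 without WT sample 4.

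Of 8 glycosidases, which trim sugars from glycoproteins and glycolipids, 1 was higher and 7 lower in KO (median -0.10, 0 called). Gla, the alpha-galactosidase lost in Fabry disease, was at 2.78, 2.23, 2.60 and 1.96 in WT and at 2.55, 1.68, 2.46 and 1.76 in KO. All 4 KO samples were below the WT sample of the same number, by 0.13 to 0.55, yet the groups overlapped (difference -0.28, SE 0.29). Neu1, the lysosomal sialidase, was at 3.32, 3.00, 3.26 and 3.05 in WT and at 3.38, 2.70, 3.17 and 2.62 in KO. Samples 2 and 4 were the low ones in KO, where the SD was 0.37 against 0.16 in WT (difference -0.19, SE 0.22). Hexa, a subunit of beta-hexosaminidase, was at 4.16, 3.96, 4.44 and 3.37 in WT and at 3.78, 3.75, 4.34 and 3.35 in KO. The gap between its samples 3 and 4, 1.06 in WT and 0.99 in KO, exceeded its genotype difference of -0.17. The remaining 5 had differences of -0.10 for Glb1 (beta-galactosidase), -0.10 for Gaa, which degrades glycogen, -0.028 for Man2b1, -0.086 for Manba and 0.0093 for Fuca1.

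The 7 sulfatases and enzymes of glycosaminoglycan breakdown held both ends of the range, with 1 higher and 6 lower (median -0.14, 0 called). Idua, the iduronidase of heparan and dermatan sulfate, was at -3.10, -1.82, -2.88 and -4.04 in WT and at -3.64, -3.79, -2.90 and -3.59 in KO. WT sample 2 lay more than 1 log2 unit above the other 3, and the difference of -0.52 (95% interval -1.57 to 0.53) came to -0.14 without it and to -0.88 without WT sample 4. Arsa, which desulfates sulfatide, was at 0.63, -0.51, 0.36 and -0.89 in WT and at 0.25, 0.51, 0.57 and -0.44 in KO. The KO sample was above its WT partner for numbers 2, 3 and 4 and below it for number 1 (difference 0.32, SE 0.40). Ids, the iduronate sulfatase, was at 4.06, 4.03, 4.37 and 3.93 in WT and at 3.96, 3.92, 4.22 and 3.73 in KO. Its KO values were lower by 0.10 to 0.20 in all 4 numbers (difference -0.14, SE 0.18). Another 2 of its probes, both dimmer, differed in the other direction, by 0.44 (SE 0.37) and 0.54 (SE 0.94). Arsb differed by -0.16, Galns by -0.14, Sgsh by -0.039 and Gusb, the beta-glucuronidase, by -0.16.

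Of the 4 genes of sphingolipid and phospholipid breakdown, 3 were higher and 1 lower (median 0.071, 0 called). Smpd1, the acid sphingomyelinase, was at 0.50, 0.33, 0.93 and 0.35 in WT and at 0.46, 0.72, 0.76 and 0.93 in KO. Sample 3 was the high one in WT and sample 4 in KO, and the ranges overlapped (difference 0.19, SE 0.20). Psap, the precursor of the saposins that present lipids to hydrolases, was at 6.41, 6.33, 6.44 and 5.81 in WT and at 6.48, 5.94, 6.37 and 5.68 in KO (difference -0.13, SE 0.25). Sample 4 was again lowest in both. Asah1, the acid ceramidase, was at 2.49, 2.57, 3.36 and 2.64 in WT and at 2.84, 2.87, 3.52 and 2.11 in KO, with sample 3 highest in both (difference 0.071, SE 0.33). Pla2g15, the lysosomal phospholipase A2, differed by 0.072 between genotypes, while its samples 3 and 4 lay 1.45 apart in WT and 1.54 apart in KO.

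All 4 genes of lysosomal protein turnover were lower in KO by a small amount (median -0.11, 0 called; under normexp Tpp1, Ppt1 and Lgmn were higher). Tpp1, the tripeptidyl peptidase, was at 4.39, 4.11, 4.73 and 3.97 in WT and at 4.19, 4.00, 4.56 and 3.79 in KO. Its 4 KO samples sat 0.10 to 0.20 below the WT samples of their number, a gap under the spread within each genotype (difference -0.16, SE 0.24). Grn, progranulin, which lysosomes process into granulins, was at 5.14, 5.02, 5.46 and 4.68 in WT and at 5.08, 4.83, 5.34 and 4.46 in KO (difference -0.15, SE 0.25). Its samples kept the same order in both genotypes. Lgmn, the asparaginyl endopeptidase that matures cathepsins, was at 5.04, 5.05, 5.50 and 4.88 in WT and at 5.20, 4.86, 5.52 and 4.59 in KO. Sample 3 was highest and sample 4 lowest in each, and the means differed by -0.071 (SE 0.25). Ppt1, which removes palmitate from proteins, differed by -0.065.

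The proton pump showed as little difference. All 5 V0 genes were lower in KO as measured here (median -0.10, 0 called; under normexp 4 of them, all but Atp6v0d2, were higher). Atp6v0c, the proteolipid of the rotating ring, was at 5.47, 5.26, 5.46 and 4.92 in WT and at 5.42, 5.18, 5.30 and 4.80 in KO (difference -0.10, SE 0.21). Every KO sample lay 0.05 to 0.16 below its WT partner. Atp6v0d1, the widely expressed d subunit, was at 4.31, 3.96, 4.17 and 3.50 in WT and at 4.10, 3.69, 4.11 and 3.52 in KO (difference -0.13, SE 0.24). Atp6v0d2, the d isoform known from osteoclasts and macrophages, had the largest SD of the 9 pump genes in both genotypes. It was at -1.46, -3.26, -1.13 and -3.11 in WT and at -2.25, -3.15, -2.01 and -2.91 in KO. Samples 1 and 3 were high and samples 2 and 4 low in both genotypes, and the difference of -0.34 had a 95% interval of -1.62 to 0.94. Atp6v0a1 differed by -0.042 and Atp6v0b by -0.091.

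Of 4 V1 genes 1 was higher and 3 lower (median -0.048, 0 called). Atp6v1a, the catalytic subunit, was at 2.62, 2.60, 3.55 and 2.88 in WT and at 2.57, 2.35, 3.29 and 2.33 in KO. All 4 KO values were below their WT partners, by 0.05 to 0.55, and the groups overlapped (difference -0.28, SE 0.31). Atp6v1b2, its partner in the hexamer, was at -0.35, -0.48, 0.12 and -0.92 in WT and at -0.14, -0.43, 0.16 and -0.80 in KO. Here all 4 KO values were above, by 0.04 to 0.21 (difference 0.11, SE 0.29). Atp6v1h, a regulatory subunit, was at 0.94, 0.74, 1.41 and 0.83 in WT and at 0.69, 0.87, 1.29 and 0.80 in KO, with sample 3 high in both (difference -0.068, SE 0.22). Atp6v1c1 differed by -0.029.

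What these genes did share was their order over the replicate numbers. This pattern was noticed after the values were seen, so its counts are a description. The sample numbered 3 was highest within both genotypes for 24 of 40 members, against 18.2% of all genes. The sample numbered 4 was lowest within both for 28 of 40, against 18.1%, and both held for 18 of 40, against 6.29%. Sample 3 exceeded sample 4 in both genotypes for 38 of 40 members, against 43.4% of all genes, and the exceptions were Arsb and Smpd1, in KO. The gap passed 1 log2 unit in both genotypes for 8 of 40, against 5.61%: Scarb2, Glb1, Man2b1, Manba, Arsa, Galns, Pla2g15 and Ppt1. Sample 1 exceeded sample 2 in both genotypes for 30 of 40, against 36.3%. The count for sample 3 above sample 4 was 38 under normexp, 37 under quantile normalization, 38 with the bright-probe median as scale, 36 with the mean over all probes and 37 of 39 in the deposited table. Sample 4 was lowest in both genotypes for 16 of 40 under normexp, 22 under quantile normalization, 26 with the mean over all probes and 20 of 39 in the deposited table.

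**Figure D2:**
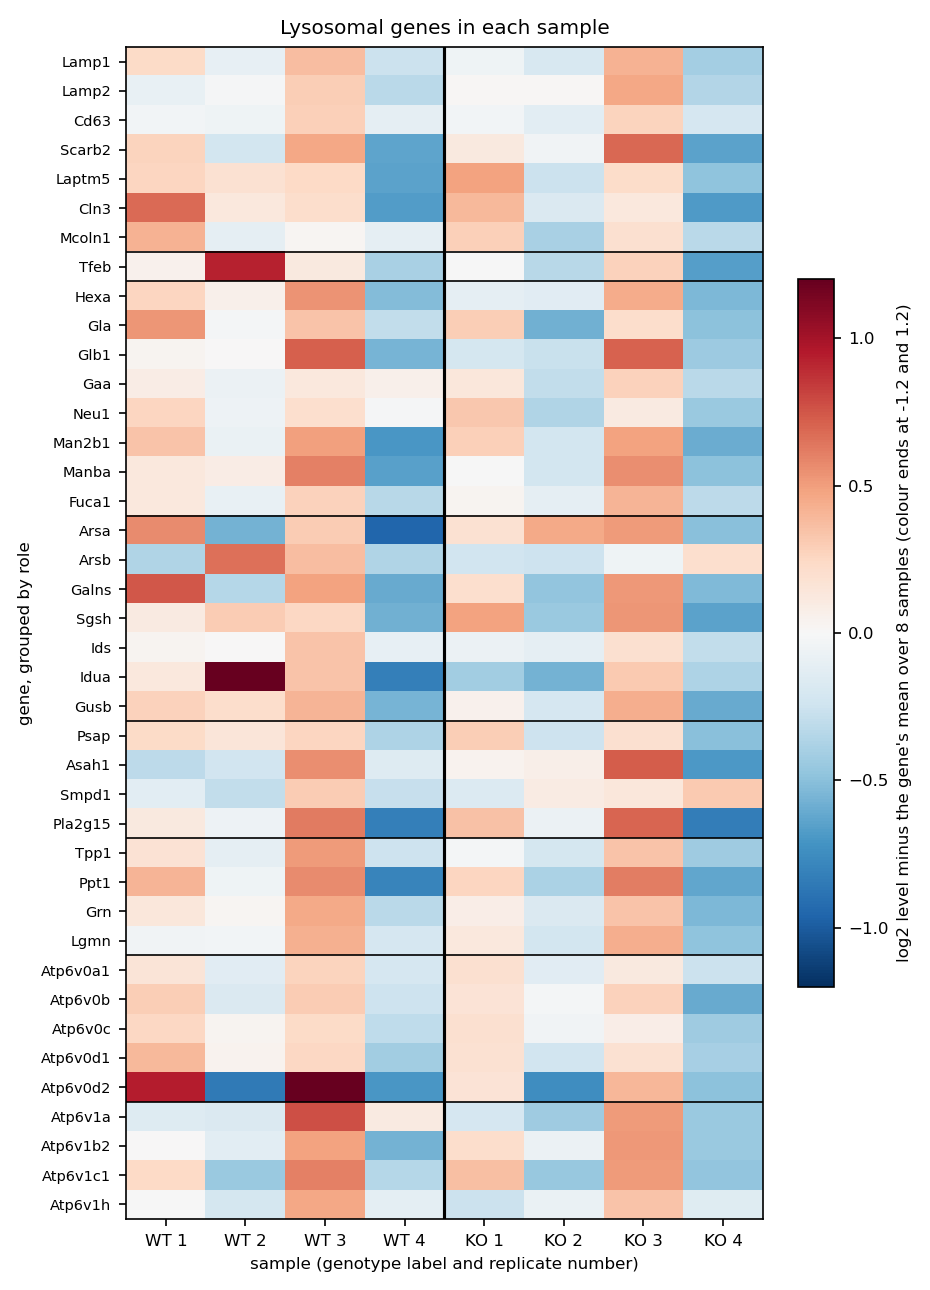
Log2 level of each of the 40 genes in each of the 8 samples minus that gene's mean over the 8 samples (colour, red above and blue below), grouped by role. The columns of WT 3 and KO 3 are mostly red and those of WT 4 and KO 4 mostly blue.

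The replicate number took a median of 90.8% of a member's variation over the 8 samples, against 66.3% over all genes. The mean share expected from its degrees of freedom alone is 42.9%. Genotype took a median of 4.0%, against 4.9% over all genes. Its expected mean share is 14.3%, but such a share is skewed and its median lies below its mean, so these are not like measures. The range of the number means exceeded the genotype difference in 40 of 40 members, as it did in 94% of all genes. Such a range, over more and smaller groups, is mostly the wider by construction, so this count ranks neither factor. In limma's F test of the number, adjusted over all genes, 1 of 40 members passed, Pla2g15 (adjusted p = 0.039), beside 7.19% of all genes. Members with the extended E-box and members without it had similar values: the median share of the number was 89.4% over 10 genes and 91.9% over 24. Their median genotype differences were -0.11 and -0.10.

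Both samples of each number shared a slide, numbers 1 and 2 being on slide 1 and numbers 3 and 4 on slide 2. The gap between numbers 3 and 4 lies within slide 2, while numbers 1 and 2 differ from them in slide too. The part of the slide in the members' pattern was not tested. Markers of several cell types also differed between samples 3 and 4. The members' median deviation from their own means was 0.16, -0.060, 0.36 and -0.35 in WT and 0.13, -0.22, 0.37 and -0.48 in KO. That of 14 macrophage markers was 0.18, 0.072, 0.37 and -0.60 in WT and 0.28, -0.12, 0.44 and -0.55 in KO, the same order within each genotype, and 14 of 14 had sample 3 above sample 4 in both genotypes. That of 10 tumour epithelial markers was -0.29, 0.58, -1.53 and 1.21 in WT and -0.31, 0.76, -1.60 and 1.79 in KO, with 10 of 10 below in sample 3. That of 9 fibroblast markers was -1.29 and -1.26 in the samples numbered 3 and 0.86 and 1.23 in those numbered 4, again with 9 of 9 below in sample 3. Endothelial markers were below in sample 3 in both genotypes for 8 of 9 and neutrophil markers for 7 of 9. Other lists were mixed. T cell markers were below for 6 of 11 and above for 1, and NK cell markers below for 5 of 9 and above for 2. Dendritic cell markers were above for 4 of 8 and below for 2. B cell markers were above for 2 of 5 and below for 2, and adipocyte markers above for 1 of 4 and below for 2.

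The summed linear level of the macrophage markers, in units of the array's 75th percentile, spanned 394 to 717 over WT samples and 414 to 726 over KO samples. Tumour epithelial markers spanned 11.7 to 90.8 and 12.2 to 104, and fibroblast markers 11.2 to 51.1 and 12.1 to 62.7. Each sum compares samples within its list and not lists with each other, so it gives no share of cells. The part of these other cells in the members' pattern was not tested. Taking the median of the macrophage markers from that of the members left -0.016, -0.13, -0.011 and 0.26 in WT and -0.15, -0.097, -0.070 and 0.066 in KO. The range was 0.403 in place of 0.852, and sample 4, the lowest before in both genotypes, was then the highest in both. The subtraction is a description and tests no cause. In sorted bulk samples, fewer cells of a type and less RNA per cell cannot be told apart.

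**Figure D3:**
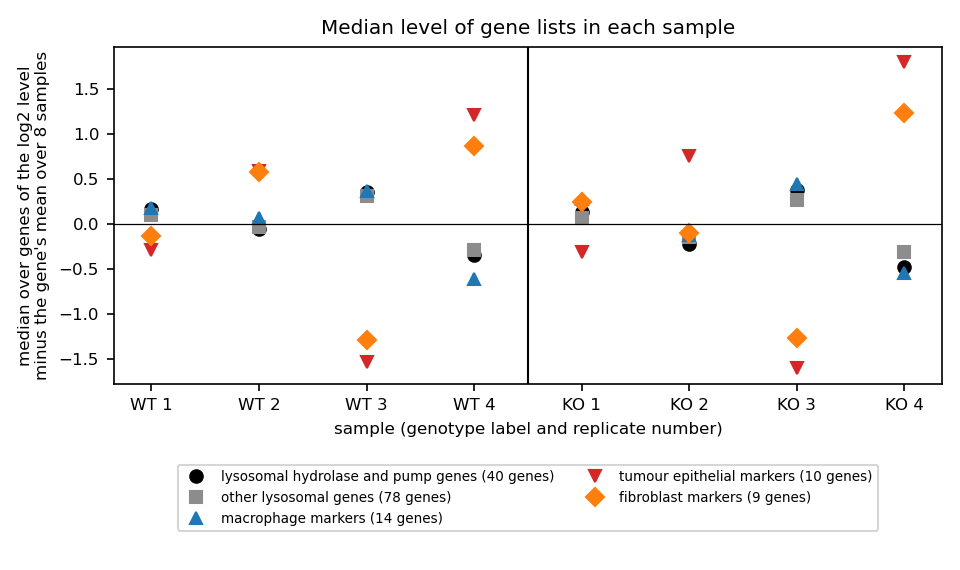
Median over the genes of each list of the log2 level minus the gene's mean over 8 samples, for each WT and KO sample. The lysosomal genes (black circles) lie near the macrophage markers (blue triangles), while tumour epithelial (red) and fibroblast markers (orange) are lowest in WT 3 and KO 3 and highest in WT 4 and KO 4.

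Other genes of the lysosome, 85 listed and 78 tested, were compared in the same fit. None passed an adjusted p of 0.05 or an unadjusted p under 0.05 in limma, 35 were higher and 43 lower in KO, and the median was -0.017. Among 22 other hydrolases and activators 6 were higher and 16 lower, with Hgsnat, which acetylates heparan sulfate, at -0.29 (SE 0.21) and Sumf1, the activator of sulfatases, at 0.18 (SE 0.19). Among 17 other membrane proteins 9 were higher and 8 lower, with Laptm4a at 0.24 (SE 0.17) and Ostm1, partner of a lysosomal chloride transporter, at -0.15 (SE 0.21). Among 14 further pump subunits and accessory proteins 8 were higher and 6 lower. Atp6v1g2 differed by -0.36 (SE 0.31). Atp6v1c2, an isoform of subunit C, was at -3.44, -2.48, -3.69 and -1.59 in WT and at -2.52, -0.36, -4.29 and 0.48 in KO. It was highest in sample 4 and lowest in sample 3 of both genotypes, the reverse of most members (difference 1.13, SE 1.04).

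For mannose 6-phosphate sorting, which delivers hydrolases to lysosomes, 4 of 9 genes were higher and 5 lower, with Gga2 at 0.20 (SE 0.20) and Gnptab, which makes the tag, at -0.22 (SE 0.26). Among 16 genes of the TFEB family and of nutrient sensing at the lysosome 8 were higher and 8 lower. Mtor, the kinase that holds TFEB in the cytosol when nutrients are ample, had the smallest unadjusted limma p of the other lysosomal genes, 0.0616, with an adjusted p of 0.9999. It was at -0.99, -0.89, -1.19 and -1.13 in WT and at -1.32, -1.93, -1.14 and -1.66 in KO, with KO sample 3 inside the WT range and the other 3 below it (difference -0.46, SE 0.21). Rragd, a Rag GTPase, differed by 0.86 (SE 0.74). Sample 3 exceeded sample 4 in both genotypes for 21 of 22 other hydrolases, 13 of 17 other membrane proteins, 9 of 14 other pump genes, 6 of 9 sorting genes and 14 of 16 genes of the TFEB group, against 43.4% of all genes.

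Different probes of a gene did not always side together. The 40 members had 59 probes, 23 members having 1 and 17 having more. For 9 of the 17 every kept probe gave a difference of the same sign, and for 8 they differed in sign. The widest gaps were in Ids (-0.14 to 0.54), Atp6v0a1 (-0.042 to 0.50), Arsb (-0.16 to 0.36) and Glb1 (-0.099 to 0.24). In these 4 the upper value came from a dimmer probe, with an SE of 0.94, 0.50, 0.24 and 0.36 in that order. That Ids probe was well above background on 6 of the 8 arrays. The others were Ppt1, Lamp2, Atp6v1h and Fuca1. With the mean over all probes of a gene, 11 members were higher and 29 lower, with a median of -0.095 and 0 called.

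**Figure D4:**
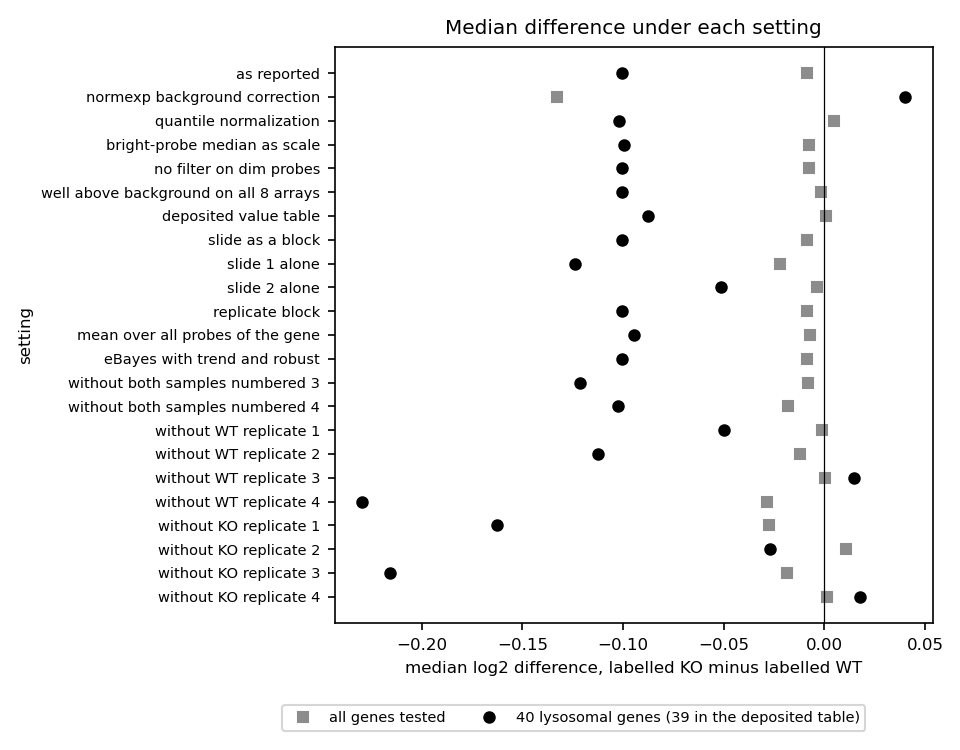
Median log2 difference (labelled KO minus labelled WT) over the lysosomal genes (black circles) and over all genes tested (grey squares) under each processing setting. The lysosomal median lies between -0.23 (without WT replicate 4) and 0.040 (normexp), and exceeds 0 under normexp, without WT replicate 3 and without KO replicate 4.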

How the data were processed

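RNA of 8 sorted macrophage samples was hybridised to 1-colour arrays. Per the file headers, the authors extracted each spot's intensity with Agilent Feature Extraction 10.7.1.1, which subtracted background to give the processed signal; the submitters' processing notes name version 10.5. A value table of the same arrays, deposited by the authors as intensity of unstated scale, served only as an alternative.

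Of 45018 spots per array, 43379 were not controls. After control and outlier spots were dropped, log2 processed signals were averaged per probe and set against the array's 75th percentile. The filter kept 27165 of 41174 probes, those marked well above background on 4 or more of the 8 arrays. RefSeq accessions (assembly GRCm38.p6) named 25097 probes, and the brightest probe stood for a gene, which gave 20870 genes, 13453 with a symbol. The genotype test was limma 3.58.1 (lmFit, eBayes; R 4.3.3), two-sided and adjusted over all genes by Benjamini-Hochberg, and was tested on simulated data. The 8 arrays limit the precision.

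The members, lists and rules were chosen with earlier results of these data known. Values in every sample are given for up to 3 members of each role by smallest p and for well known members, and up to 2 genes are named from each related list. What a replicate number shares is not given in the labels. Same-numbered samples deviated together from their group means, with correlations across genes of 0.30, 0.14, 0.70 and 0.51, all over the limit of 0.1, and on that ground they were taken as pairs; WT sample 2 with KO sample 4 (0.15) and WT sample 4 with KO sample 2 (0.14) were over it too. The replicate block is an alternative. The others were normexp (offset 50, on the median signal), quantile and bright-probe scaling, 2 other filters, the deposited table, slide, the mean over probes, another variance model and leaving out each sample. Leaving out both samples of number 3 or 4 was added after seeing the data.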

Additional observations from a re-analysis of the deposited data

Results flagged for a closer look

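Each of the 40 genes was looked at within each genotype, 80 groups of 4 samples, for a sample standing apart from the other 3. The rule, the 95% critical value of Dixon's test, is set so that chance flags about 1 group in 20, and it flagged 1 of the 80. Laptm5 in WT sample 4 was at 4.62, while the other 3 WT samples lay between 5.44 and 5.52, a gap of 0.913 of the group's whole range. The KO sample of the same number was also the lowest of its group for Laptm5, at 4.78. The genotype difference of Laptm5 was -0.018 with all samples and ran from -0.23 to 0.14 as single samples were left out.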

How the results depend on the processing

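Under 22 other settings, 8 of which leave out 1 sample, no member passed an adjusted p of 0.05 (limma, smallest 0.708) or an unadjusted p under 0.05 (smallest 0.0516). The count of genes called stayed at 0, with a range of 0 to 1 over the settings that leave out 1 sample. The 1 call came without KO replicate 1. With the replicate block it was 0, no member changed sign, and the count of genes at an unadjusted p under 0.05 rose from 696 to 1576. The members' median was -0.12 on slide 1 and -0.051 on slide 2, and it ran from -0.23 (without WT replicate 4) to 0.018 (without KO replicate 4) as single samples were left out. Under normexp 60.8% of all genes were lower in KO, against 51.4% as reported. For 6 members the sign held under all settings, and the cause of the other sign changes was not tested. The sign turned under normexp for Lamp1 at 0.013, Cd63 at 0.15, Laptm5 at 0.19, Cln3 at 0.044, Hexa at 0.036, Glb1 at 0.0084, Neu1 at 0.031, Man2b1 at 0.11, Manba at 0.019, Ids at 0.0054, Psap at 0.097, Tpp1 at 0.053, Ppt1 at 0.024, Lgmn at 0.15, Atp6v0a1 at 0.063, Atp6v0b at 0.060, Atp6v0c at 0.11, Atp6v0d1 at 0.075, Atp6v1c1 at 0.10 and Atp6v1h at 0.011. With the mean over all probes it turned for Lamp2 at -0.0019, Glb1 at 0.068, Fuca1 at -0.020, Arsb at 0.10, Ids at 0.28, Ppt1 at 0.064 and Atp6v0a1 at 0.23, and in the deposited table for Laptm5 at 0.0086. On slide 2 alone it turned for Laptm5 at 0.071, Glb1 at 0.060, Man2b1 at 0.047, Manba at 0.052, Arsb at 0.070, Galns at 0.054, Sgsh at 0.11, Idua at 0.21, Asah1 at -0.18 and Ppt1 at 0.11, and on slide 1 alone for Fuca1 at -0.057, Atp6v0a1 at 0.022, Atp6v0b at 0.012 and Atp6v1c1 at 0.060. Without both samples numbered 3 it turned for Fuca1 at -0.031, and without both numbered 4 for Lgmn at 0.00063 and Atp6v1c1 at 0.0078. As single samples were left out, 27 differences crossed 0: Arsb from -0.31 to 0.037, Asah1 from -0.16 to 0.31, Atp6v0a1 from -0.12 to 0.041, Atp6v0b from -0.20 to 0.094, Atp6v0c from -0.22 to 0.021, Atp6v0d2 from -0.68 to 0.033, Atp6v1b2 from -0.064 to 0.28, Atp6v1c1 from -0.20 to 0.17, Atp6v1h from -0.19 to 0.076, Cd63 from -0.14 to 0.042, Cln3 from -0.42 to 0.027, Fuca1 from -0.12 to 0.12, Galns from -0.36 to 0.083, Glb1 from -0.35 to 0.12, Grn from -0.29 to 0.0056, Gusb from -0.38 to 0.013, Lamp2 from -0.078 to 0.19, Laptm5 from -0.23 to 0.14, Lgmn from -0.23 to 0.080, Man2b1 from -0.27 to 0.17, Manba from -0.32 to 0.10, Mcoln1 from -0.23 to 0.0083, Pla2g15 from -0.19 to 0.36, Ppt1 from -0.34 to 0.13, Psap from -0.28 to 0.015, Scarb2 from -0.16 to 0.29 and Sgsh from -0.24 to 0.17.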
